A study of Danio rerio with 4 samples.

Results

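The 10 genes described here are parts or outputs of the circadian clock: *per1a*, *per1b*, *per2*, *per3*, *clocka*, *arntl1a*, *arntl2*, *nr1d1*, *nr1d2a* and *aanat1*. The rule takes them by symbol, although they were picked with earlier results of these data known. All 10 were found among the 31388 records of the 36hpf table and the 31950 records of the 72hpf table. All 10 also passed the minimum on low values at both stages, among 21876 genes kept at 36hpf (at least 20 reads over both genotypes) and 17307 genes kept at 72hpf (at least 1 FPKM in either library).

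RNA was sequenced from dissected, pooled zebrafish eyes of the TL strain, with 1 sample of *tet2*-/-;*tet3*-/- mutants and 1 sample of siblings at 36hpf, and the same at 72hpf, 4 samples in all. The mutants are described as carrying the frameshift alleles *tet2* au59 and *tet3* au60 in every cell. Siblings were picked as phenotypically wild type, and no source used here names the genotypes of the fish that were pooled. No sample was treated. According to the methods, embryos were raised in the dark from parents kept in a light and dark cycle. No source used here gives the hour of the day at which mutant and sibling eyes were dissected, so an effect of the hour on these genes cannot be told apart from an effect of genotype.

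In the vertebrate clock, Clock and Bmal proteins (Bmal genes are named *arntl* here) bind E-boxes as pairs and switch on Period, Cryptochrome, Rev-erb (*nr1d*) and PAR bZIP genes. Period and Cryptochrome proteins feed back to block Clock and Bmal, while Rev-erb receptors repress and Ror receptors activate the Bmal genes. Zebrafish tissues can sense light themselves, and light raises *per2* and *cry1aa*. In the eye, photoreceptors make melatonin under control of the clock, and *aanat1* encodes a retinal form of the enzyme that sets its rhythm.

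With 1 sample per genotype and stage there is no replicate check and no test, so each difference below compares these libraries and is described by its size. A value at 36hpf is a sum of 2 whole read counts, called the larger and the smaller by their size within each gene and genotype. The log2 fold-change, mutant over sibling, is scaled for depth by TMM. Its exact 95% interval covers counting error only. RPM are the same reads scaled to a fixed library total. A value at 72hpf is in FPKM (reads scaled by gene length and library total), for which the depth of each library is unknown. The difference of log2(FPKM + 1) is given without an interval. Because eyes were measured in bulk, fewer cells of a type and less RNA per cell cannot be told apart.

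The 36hpf libraries held 106912677 reads in mutant-labelled and 88875538 reads in sibling-labelled eyes. By RT-PCR of embryos at other stages, the study found no *tet2* transcript in these mutants and ascribed this to decay. Here its level was not lower in mutant-labelled eyes at either stage, which goes against that loss. The study also states that its 36hpf RNA-seq found no wild-type *tet2* or *tet3* transcript in mutants. Reads counted per gene do not separate mutant from wild-type transcript, so they do not settle the labels. By in situ hybridization at 72hpf, the study saw *nppa* in mutant but not wild-type retina, and *opn1sw1* and *opn1mw1* largely lost in mutants. In the 72hpf libraries *nppa* had 12.1 FPKM in mutant-labelled and 0.151 FPKM in sibling-labelled eyes. *opn1sw1* had 32.1 and 3591 FPKM and *opn1mw1* 22.0 and 2093 FPKM, the same directions as in situ. *tet2* had 12459 reads in mutant-labelled and 9646 reads in sibling-labelled eyes at 36hpf (log2 fold-change 0.07), and 34.1 and 33.6 FPKM at 72hpf. *tet3* was at -0.26 at 36hpf and -0.55 at 72hpf. Markers of other cells also differed between the libraries. At 36hpf, 7 of 9 epidermis markers kept were at 1 or more (9468 RPM in all in mutant-labelled eyes, 2445 in sibling-labelled eyes) and 11 of 12 lens markers were at -1 or less (965 and 3871 RPM). At 72hpf, 18 of 18 photoreceptor markers were at -1 or less (814 FPKM in all in mutant-labelled eyes, 16695 FPKM in sibling-labelled eyes) and 11 of 11 muscle markers kept were at 1 or more (276 and 37.7 FPKM). All 4 hatching gland markers were also at 1 or more at 36hpf (132 RPM in all in mutant-labelled and 1.03 RPM in sibling-labelled eyes), and 6 of 9 photoreceptor transcription factors and 6 of 12 inner retina neuron markers were at -1 or less, as was *atoh7*, a gene of ganglion cell precursors (585 and 13794 reads, -4.85). At 72hpf, 5 of 6 red blood cell markers kept were at 1 or more, and 5 of 11 lens markers kept were at -1 or less. Beside these marker counts, 8.90% of all genes kept reached 1 at 36hpf and 3.65% did at 72hpf. In the other direction, 6.15% of all genes kept reached -1 at 36hpf and 9.02% did at 72hpf. The part of the cells that these lists mark in the values of the clock genes was not tested.

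At 36hpf the Period genes stood higher in mutant-labelled eyes with the widest differences at the paralogs *per1a* and *per1b*, and *clocka* stood higher by about as much as *per2*. Of the 10 genes, 9 had a log2 fold-change above 0, against 51.0% of all genes kept. At 1 or more there were 2 of 10, against 8.90% of all genes, and at -1 or less there were 0 of 10, against 6.15%. The median over the 10 genes was 0.36, and over all genes 0.01. Fold-changes from the larger counts alone and from the smaller counts alone differed by 0.02 to 0.09 for 9 genes and by 0.33 for *aanat1*.

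*per1b*, a Period repressor of the core loop, had 8338 and 4851 reads in mutant-labelled eyes, against 2158 and 1473 reads in sibling-labelled eyes. Even the smaller count of mutant-labelled eyes exceeded the larger count of sibling-labelled eyes. This was 122 RPM in mutant-labelled and 41.2 RPM in sibling-labelled eyes, a log2 fold-change of 1.57 (interval 1.51 to 1.62). Of all genes kept, 96.1% had a lower fold-change than *per1b*. In the RefSeq annotation (assembly GRCz12tu) *dthd1* overlaps *per1b*, and no source used here says whether reads were counted by strand.

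*per1a*, its paralog, was far less abundant in reads, with 48 and 34 in mutant-labelled eyes, against 12 and 10 in sibling-labelled eyes. The log2 fold-change was 1.58 (interval 0.91 to 2.35), close to that of *per1b* but with a wider interval because it rests on 104 reads. *per3*, the Period gene often used to report clock phase in zebrafish larvae, had 1463 and 817 reads in mutant-labelled eyes, against 770 and 519 reads in sibling-labelled eyes. Its log2 fold-change was 0.53 (interval 0.43 to 0.63). *per2*, the Period gene that light induces, had 1531 and 822 reads in mutant-labelled eyes, against 940 and 655 reads in sibling-labelled eyes. Its log2 fold-change was 0.27 (interval 0.17 to 0.36), so the 4 Period genes shared a direction but not a size, and the interval of *per2* lay below those of the other 3.

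Among the activators, *clocka*, which encodes a Clock protein, had 1737 and 1020 reads in mutant-labelled eyes, against 1071 and 770 reads in sibling-labelled eyes. Its log2 fold-change was 0.29 (interval 0.20 to 0.37). *arntl1a*, a Bmal gene, had 1408 and 784 reads in mutant-labelled eyes, against 969 and 715 reads in sibling-labelled eyes. This was 20.3 RPM in mutant-labelled and 19.1 RPM in sibling-labelled eyes, and the interval of its log2 fold-change (0.09, interval -0.01 to 0.18) included 0. *arntl2*, the other Bmal gene of the 10, had 2704 and 1551 reads in mutant-labelled eyes, against 2231 and 1658 reads in sibling-labelled eyes. With a log2 fold-change of -0.16 (interval -0.23 to -0.10) it was the 1 gene of the 10 that stood lower in mutant-labelled eyes at 36hpf.

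The Rev-erb genes *nr1d1* and *nr1d2a* encode receptors that repress Bmal genes. *nr1d1* had 96 and 60 reads in mutant-labelled eyes, against 52 and 43 reads in sibling-labelled eyes, a log2 fold-change of 0.42 (interval 0.04 to 0.80). *nr1d2a* had 1839 and 1002 reads in mutant-labelled eyes, against 1123 and 749 reads in sibling-labelled eyes, a log2 fold-change of 0.31 (interval 0.22 to 0.39). Both were modestly higher in mutant-labelled eyes, and the interval of *nr1d1* nearly reached 0. *aanat1* had only 11 and 7 reads in mutant-labelled eyes, against 4 and 4 reads in sibling-labelled eyes. No difference of *aanat1* was detectable at this depth, since the interval of its log2 fold-change (0.84) ran from -0.40 to 2.29. The plot of RPM at 36hpf shows the 10 genes with their counting intervals.

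**Figure D1:**
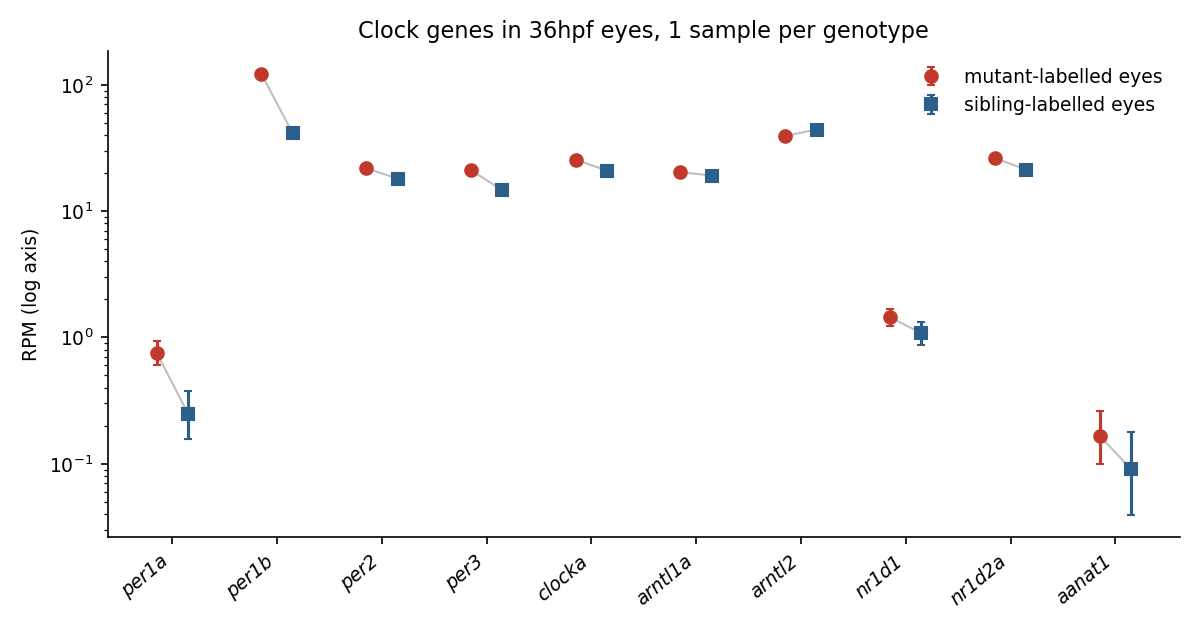
RPM (log axis) of the 10 clock genes in 36hpf eyes, with mutant-labelled eyes as red circles and sibling-labelled eyes as blue squares, 1 sample each, and exact 95% intervals for counting error as bars. *per1b* and *per1a* have the widest gaps (log2 fold-changes of 1.57 and 1.58), *arntl2* is the 1 gene that is lower in mutant-labelled eyes, and the intervals of *arntl1a*, *nr1d1* and *aanat1* overlap between the libraries.

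At 72hpf most of the 10 genes stood lower in mutant-labelled eyes, and *nr1d1* differed most by far. Below 0 there were 7 of 10, against 48.1% of all genes kept. At -1 or less there was 1 of 10 (*nr1d1*), against 9.02% of all genes, a share near the background, and at 1 or more there were 0 of 10, against 3.65%. *nr1d1* was also the 1 gene of the 10 at -2 or less, where 1.77% of all genes lay. The median over the 10 genes was -0.50, and over all genes 0.02. Loci are given below as the table gives them, on the GRCz10 build. A span can cover more than 1 record, as for *per1a* and *clocka*.

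*nr1d1* (ENSDARG00000033160, chr3:23358103-23365675) had 9.69 FPKM in mutant-labelled eyes and 50.9 FPKM in sibling-labelled eyes. Among the 10 genes its level ranked 7th in mutant-labelled eyes, whereas it ranked 1st in sibling-labelled eyes. The difference of log2(FPKM + 1) was -2.28, and 1.16% of all genes kept had a lower difference. As a plain ratio of FPKM, with nothing added, the level was 5.25-fold lower in mutant-labelled eyes. *nr1d2a* (chr16:49879774-49907024), the other Rev-erb gene, had 25.6 FPKM in mutant-labelled eyes and 47.6 FPKM in sibling-labelled eyes. It ranked 2nd of the 10 in both libraries, and its difference of -0.87 was smaller in size than that of *nr1d1*.

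The Period genes split at this stage. *per1b* (chr7:50547394-50571221) had 37.3 FPKM in mutant-labelled eyes and 24.9 FPKM in sibling-labelled eyes, a difference of 0.57. *per3* (chr11:39694893-39750674) had 16.7 FPKM in mutant-labelled eyes and 13.5 FPKM in sibling-labelled eyes, a difference of 0.29. Both stood higher in mutant-labelled eyes, and *per1b* had the highest level of the 10 genes there. *per1a* (chr10:22841346-22862023) had 3.54 FPKM in mutant-labelled eyes and 7.62 FPKM in sibling-labelled eyes, a difference of -0.92. The table gives the same span to 1 other record, listed at 0 FPKM in both libraries, so reads of *per1a* and that record could have been split. *per2* (chr2:48455429-48521197) had 12.3 FPKM in mutant-labelled eyes and 17.8 FPKM in sibling-labelled eyes, a difference of -0.50. The paralogs *per1a* and *per1b* thus lay on opposite sides of 0.

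Neither the Clock gene nor the Bmal genes reached 1 or -1. *clocka* (chr20:22167663-22276330) had 10.96 FPKM in mutant-labelled eyes and 10.9 FPKM in sibling-labelled eyes, a difference of 0.0049, whose sign changed when FPKM were rescaled. A second *clocka* record on the same span held 0 FPKM in mutant-labelled and 0.071 FPKM in sibling-labelled eyes. The Bmal genes lay lower in mutant-labelled eyes: *arntl1a* (chr25:17797383-17822410) had 9.54 FPKM in mutant-labelled eyes and 13.99 FPKM in sibling-labelled eyes, a difference of -0.51. *arntl2* (chr18:15601114-15642344) had 14.9 FPKM in mutant-labelled eyes and 19.9 FPKM in sibling-labelled eyes, a difference of -0.40. These sizes lay well inside the range of all genes, where the 5th percentile was -1.36.

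*aanat1* (chr6:18518969-18521517) had the lowest level of the 10 genes in both libraries, with 2.75 FPKM in mutant-labelled eyes and 6.03 FPKM in sibling-labelled eyes. Its difference was -0.91 with 1 FPKM added and -1.11 with 0.1 FPKM added, and that of *per1a* was likewise -1.08 with 0.1 FPKM added. No value here shows which cells of the eye expressed *aanat1*. In the same libraries 18 of 18 photoreceptor markers were at -1 or less (median -4.44), against 9.02% of all genes. Of 9 photoreceptor transcription factors 0 were at -1 or less. The part of photoreceptors in the value of *aanat1* was not tested. The plot of FPKM at 72hpf shows the levels of both libraries.

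**Figure D2:**
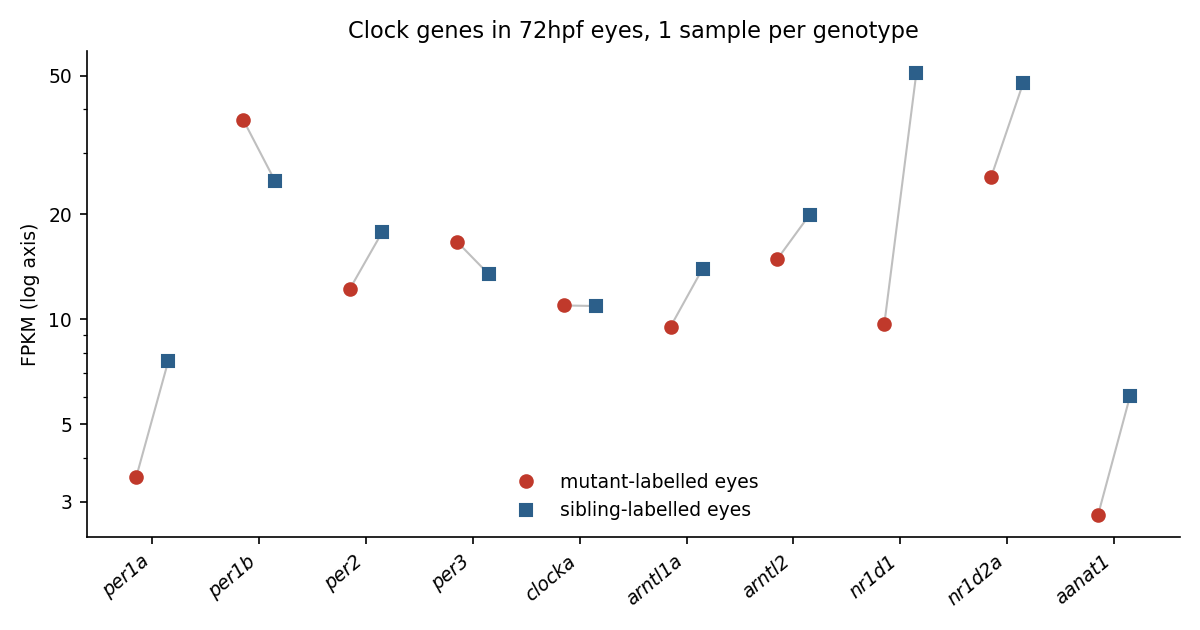
FPKM (log axis) of the 10 clock genes in 72hpf eyes, with mutant-labelled eyes as red circles and sibling-labelled eyes as blue squares, 1 sample each and no error bars because FPKM keep no depth. The steepest line is that of *nr1d1*, at 9.69 FPKM in mutant-labelled and 50.9 FPKM in sibling-labelled eyes, and *per1b* and *per3* are higher in mutant-labelled eyes.

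Set side by side, *per1b* and *per3* lay above 0 at both stages and *arntl2* lay below 0 at both. *clocka* was at 0.29 at 36hpf and 0.0049 at 72hpf. *per1a*, *per2*, *nr1d1*, *nr1d2a*, *arntl1a* and *aanat1* lay above 0 at 36hpf and below 0 at 72hpf, although for *arntl1a* and *aanat1* the 36hpf interval included 0. The stages were sequenced on different instruments and deposited in different units, so differences within a stage are set side by side and levels are not compared between stages. Whether the stages differ was not tested, as there is 1 sample per genotype at each.

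The same was looked at over 6 lists of clock genes, 54 in all, which include 9 of the 10 genes (*aanat1* is in the melatonin list). Of the 49 kept at 36hpf, 7 reached 1 or more (14.3%, against 8.90% of all genes) and 0 lay at -1 or less (6.15% of all genes). Their median was 0.28. Of the 50 kept at 72hpf, 12 had a difference of -1 or less (24.0%, against 9.02% of all genes) and 0 lay at 1 or more (3.65% of all genes). Their median was -0.38. Without the 9 genes, 5 of 40 (12.5%) were at 1 or more at 36hpf, against the same 8.90%, and 11 of 41 (26.8%) were at -1 or less at 72hpf, against 9.02%. Of the 49 genes kept at both stages, 24 (49.0%) lay above 0 at 36hpf and below 0 at 72hpf, against 20.6% of the 15423 genes that both tables share by name. The genes of a clock share regulators and are not independent of each other. Other lists also lay off the background at 72hpf. Of 11 housekeeping genes, 4 were at 1 or more, against 3.65% of all genes, and 0 at -1 or less (median 0.43). Of 12 inner retina neuron markers, 3 (25.0%) were at -1 or less, against 9.02% of all genes, and 0 at 1 or more (median -0.27).

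**Figure D3:**
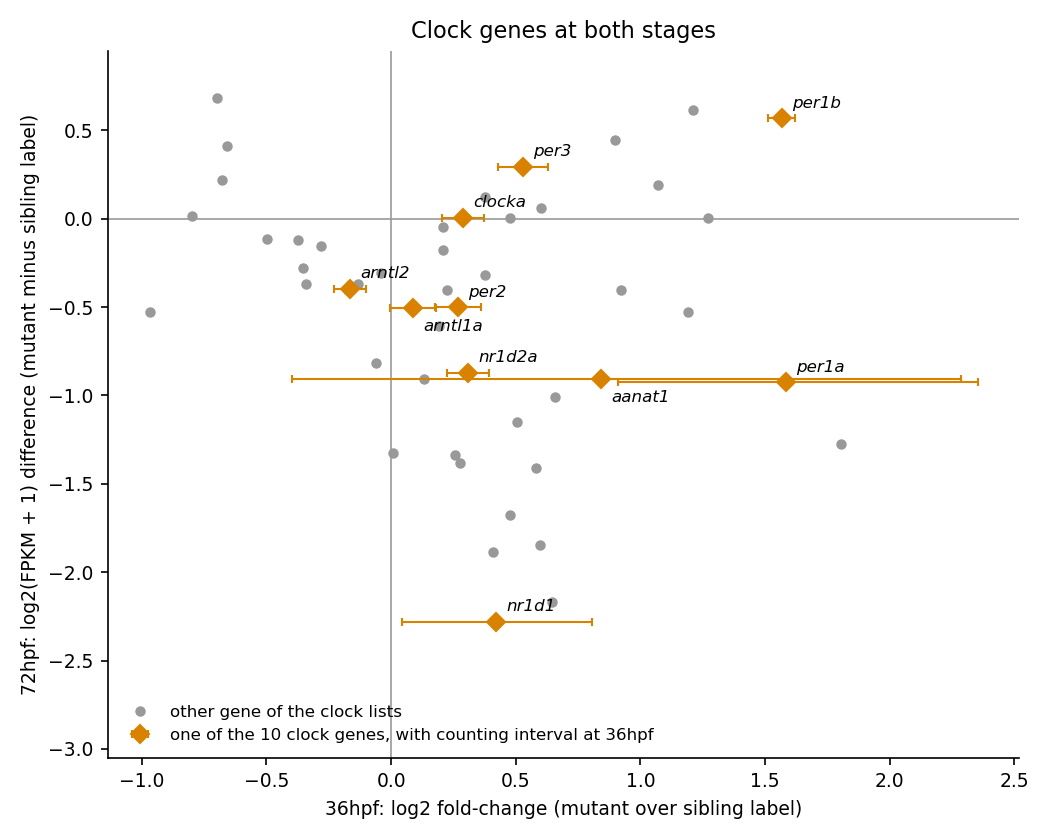
Log2 fold-change at 36hpf (x axis) against the difference of log2(FPKM + 1) at 72hpf (y axis), both mutant against sibling, for the 49 genes of the clock lists kept at both stages and *aanat1*. Diamonds are the 10 clock genes with their 36hpf counting interval, circles are the other listed genes, and 24 of the 49 lie at the lower right, with *nr1d1* lowest at -2.28.

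Of 10 Period and Cryptochrome genes, 8 lay above 0 at 36hpf, against 51.0% of all genes, and 4 were at 1 or more, against 8.90% (median 0.45). Besides *per1a* and *per1b* these were *cry1aa*, a light-induced Cryptochrome, with 4208 reads in mutant-labelled and 1632 reads in sibling-labelled eyes (log2 fold-change 1.07), and *cry1ab*, with 1512 and 532 reads (1.21). *cry1bb* lay lowest, at -0.50. At 72hpf none of the 10 reached 1 or -1, against 3.65% of all genes at 1 or more and 9.02% at -1 or less. *cry1ab* was at 0.62 and *cry1aa* at 0.19, beside *per1b* and *per3*, and *cry1ba* at -0.81.

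Of the other activators, *clockb* was at 0.21 and *arntl1b* at 0.38 at 36hpf, near *clocka*. None of the 6 activators reached 1 or -1, against 8.90% of all genes at 1 or more and 6.15% at -1 or less. At 72hpf *npas2*, which can stand in for Clock, was the 1 activator of 6 at -1 or less, against 9.02% of all genes. It had 2.80 FPKM in mutant-labelled and 8.89 FPKM in sibling-labelled eyes (-1.38).

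Among the 6 clock lists the nuclear receptors had the lowest median at 72hpf, -1.09 over 10 genes, with 5 of 10 at -1 or less, against 9.02% of all genes. Next to *nr1d1* were *nr1d4a*, a Rev-erb relative (1.31 FPKM in mutant-labelled and 9.39 FPKM in sibling-labelled eyes, -2.17), and *rorca*, a Ror activator (11.1 and 42.7 FPKM, -1.85). *nr1d2b*, the other copy of *nr1d2a*, was at -0.61, *roraa* at -1.33 and *nr1d4b* at -1.27. The table gives *nr1d4a* and *nr1d4b* spans that other records share. *rorb*, a Ror gene of the developing retina, was the 1 receptor above 0 (149 FPKM in mutant-labelled and 92.6 FPKM in sibling-labelled eyes, 0.68). At 36hpf the order differed: *nr1d4b* was at 1.81 (220 reads in mutant-labelled and 51 reads in sibling-labelled eyes), *rorb* at -0.70, and the median over 10 genes was 0.36.

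PAR bZIP factors are outputs of the clock that bind D-boxes, and Nfil3 factors oppose them there. At 36hpf *tefb* (2071 reads in mutant-labelled and 700 reads in sibling-labelled eyes, 1.27) and *nfil3-6* (342 and 122 reads, 1.19) were at 1 or more of 10 kept, against 8.90% of all genes. The other Nfil3 genes kept there had more reads and lay below 0: *nfil3* (2187 and 3101 reads, -0.80), *nfil3-2* (-0.68) and *nfil3-5* (-0.66). At 72hpf 4 of 10 were at -1 or less, against 9.02% of all genes: *hlfa* (27.1 FPKM in mutant-labelled and 88.7 FPKM in sibling-labelled eyes, -1.68), *dbpa* (-1.41), *hlfb* (-1.33) and *dbpb* (-1.15). *tefa* and *tefb* were not among them, at 0.44 and 0.0043. Of the other E-box repressors, *bhlhe40* (Dec1) had 13.4 FPKM in mutant-labelled and 52.2 FPKM in sibling-labelled eyes at 72hpf (-1.88), *ciartb* was at -1.01, and *ciarta* had 48.5 and 48.4 FPKM. Kinases and turnover factors of the clock proteins had none at 1 or more, or -1 or less, at either stage and medians of -0.17 over 9 genes at 36hpf and -0.22 over 10 genes at 72hpf.

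**Figure D4:**
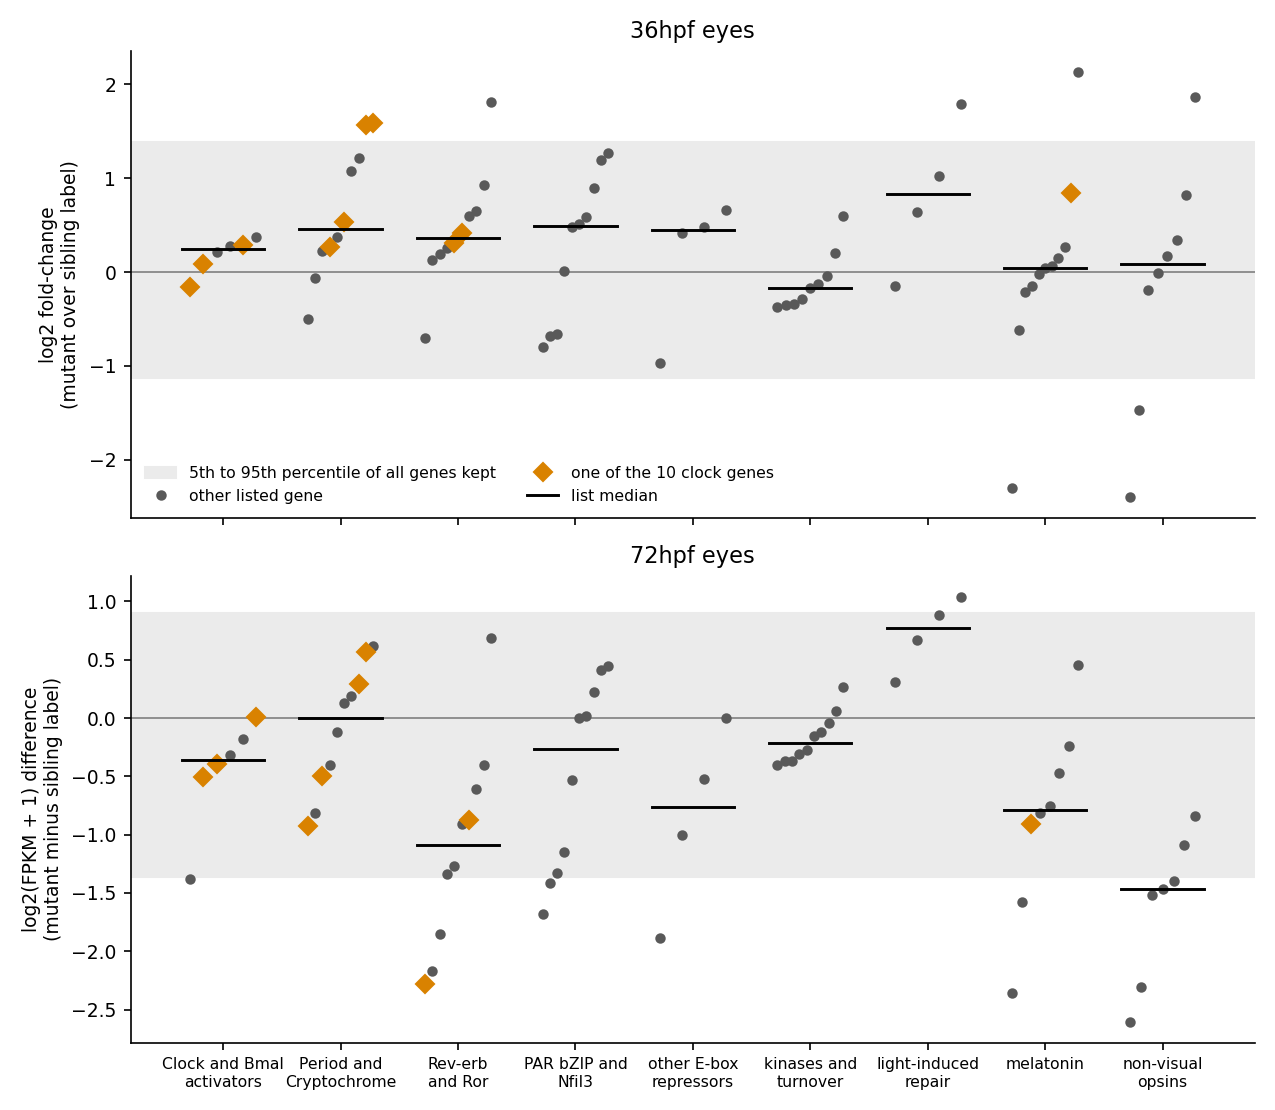
Log2 fold-change at 36hpf (upper panel) and difference of log2(FPKM + 1) at 72hpf (lower panel), mutant against sibling, for each gene kept in the 6 clock lists and in 3 lists of related genes. Diamonds are the 10 clock genes, bars are list medians, and the grey band spans the 5th to 95th percentile of all genes kept (-1.13 to 1.38 at 36hpf, -1.36 to 0.90 at 72hpf). The Rev-erb and Ror median is 0.36 at 36hpf and -1.09 at 72hpf.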

How the data were processed

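For 36hpf eyes, sequenced on a NextSeq, the authors counted reads on GRCz10 with CLC Genomics Workbench. Although its header names FPKM, the deposited table holds expected counts, each a mean of 2 whole read counts, and the authors' log2 columns hold the mean log2 of the same counts. From these the larger and smaller count were recovered, and their sum was used. The column sub-headings are swapped, and samples were taken from the column names. No source used here says whether the 2 counts are runs or libraries, so they count as 1 sample. For 72hpf eyes, sequenced on a HiSeq, the authors used TopHat and Cufflinks and deposited FPKM per gene. FastQC, TopHat and GRCz10 stand in the submitters' processing notes, which give no versions, and the annotation was not given in the sources used here. The authors' signed folds and their table of changed genes with log2 fold-changes hold their own comparisons and were not used.

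Counts were scaled by TMM (edgeR 4.0.16) with 0.5 reads added, and Clopper-Pearson intervals came from scipy 1.17.1. DESeq2 1.42.0 size factors, total counts, other minimums (1 and 100 reads, 0 and 5 FPKM), 5 reads or 0.1 FPKM added, the larger or smaller counts alone and 2 rescalings of FPKM were alternatives. Reads carry no molecular identifiers. The steps across all genes were tested on simulated data. Of 2 *clocka* records, that with the higher level was used. Cryptochrome symbols that differ between tables were joined through RefSeq synonyms (GRCz12tu), and the 36hpf names are printed. All 10 genes are named. Other listed genes are named at 1 or more, or -1 or less (with at least 100 reads at 36hpf), as the other copy of 1 of the 10, or among the 2 with the highest level in a list. Further genes were named after their values were seen. Members and lists were chosen with earlier results of these data known.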

Additional observations from a re-analysis of the deposited data

Results flagged for a closer look

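For 4 of the 10 genes the libraries differed in opposite directions at the stages, with the 36hpf counting interval above 0. Of the 15423 genes that both stages share by name, 20.6% lay above 0 at 36hpf and below 0 at 72hpf. A further 23.8% lay below 0 at 36hpf and above 0 at 72hpf. These shares were counted without regard to intervals, and the 72hpf values have no interval. *nr1d1* was at -2.28 at 72hpf and 0.42 at 36hpf. *per1a* was at -0.92 at 72hpf and 1.58 at 36hpf. *nr1d2a* was at -0.87 at 72hpf and 0.31 at 36hpf. *per2* was at -0.50 at 72hpf and 0.27 at 36hpf. With 1 sample per genotype at each stage, the difference between stages was not tested.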

How the results depend on the processing

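At 36hpf, 67 values of the 10 genes under 7 alternatives (scaling, reads added, minimum reads, larger or smaller counts only) kept their sign. At 72hpf, 48 of 50 values under 5 alternatives did, and the exceptions were *clocka* under both rescalings of FPKM (lowest -0.02). At both stages these totals include values under other minimums. A minimum only drops genes and leaves the value of a kept gene as it was, so those values could not change sign. *nr1d1* at 72hpf ranged from -2.38 to -2.28 and *per1b* at 36hpf from 1.54 to 1.62. With 0.1 FPKM added, 3 of the 10 genes were at -1 or less at 72hpf, against 1 with 1 FPKM added, since *per1a* and *aanat1* passed -1. The share of all genes at -1 or less (9.02%) was counted with 1 FPKM added only. A smaller addition widens the differences of other genes too, so the 3 of 10 has no background beside it. No paired analysis was possible because each genotype has 1 sample per stage. The search for E-boxes and other motifs planned for promoters was not run. The depth of the 72hpf libraries is unknown.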

Other observations

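Of 4 DNA repair genes that light induces in zebrafish, 3 lay higher in mutant-labelled eyes at both stages, against 28.3% of all genes that both tables share. *cry-dash*, a photolyase relative, had 1335 reads in mutant-labelled and 315 reads in sibling-labelled eyes at 36hpf (log2 fold-change 1.79), and 8.58 and 3.67 FPKM at 72hpf (difference 1.04). *ddb2*, which recognises damage made by ultraviolet light, was at 1.02 at 36hpf and 0.89 at 72hpf, and *cry5*, a photolyase, at 0.64 and 0.67. *xpc*, a further recognition factor, was at -0.15 at 36hpf and 0.31 at 72hpf.

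Of 8 melatonin genes kept at 72hpf, 2 were at -1 or less, against 9.02% of all genes. *asmt*, the last enzyme of melatonin synthesis, had 0.583 FPKM in mutant-labelled and 7.14 FPKM in sibling-labelled eyes (-2.36), while its paralog *asmt2* had 16.3 and 11.6 FPKM (0.46). *mtnr1aa*, a melatonin receptor whose span the table also gives to 4 other records, was at -1.58. At 36hpf 1 of 11 melatonin genes kept was at 1 or more, against 8.90% of all genes, and 1 was at -1 or less, against 6.15%. Their median was 0.04, with 6 above 0 and 5 below 0. The highest was *tph1a*, the first enzyme of the pathway, with 136 reads in mutant-labelled and 25 reads in sibling-labelled eyes (log2 fold-change 2.13). The lowest was *ddc*, a later enzyme, with 17 and 70 reads (-2.30). *aanat2*, the paralog of *aanat1*, had 6.29 FPKM in mutant-labelled and 11.3 FPKM in sibling-labelled eyes. Of 7 non-visual opsins kept at 72hpf, which sense light outside image formation, 6 were at -1 or less, against 9.02% of all genes (median -1.47). These were *opn4.1*, *opn4a* (-2.31), *opn4b* (-1.52), *opn4xb* (-1.47), *opn4xa* (-1.39) and *valopb* (-1.09). *opn4.1*, a melanopsin, had 6.96 FPKM in mutant-labelled and 47.3 FPKM in sibling-labelled eyes at 72hpf (-2.60), against 247 reads in mutant-labelled and 55 reads in sibling-labelled eyes at 36hpf (log2 fold-change 1.86). At 36hpf *opn4.1* was the 1 opsin of 8 kept at 1 or more, against 8.90% of all genes. At -1 or less there were 2 of 8, against 6.15% of all genes. These 2, on few reads, were *valopa* (4 reads in mutant-labelled and 19 reads in sibling-labelled eyes, -2.39) and *tmtopsb* (24 and 55 reads, -1.47). The median over the 8 opsins was 0.08, with 4 above 0 and 4 below 0. Photoreceptor markers differed in the same 72hpf libraries. Of 12 inner retina neuron markers there, 3 were at -1 or less, against 9.02% of all genes (median -0.27). The part of either group of cells in the melatonin and opsin values was not tested.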
